A study of Mus musculus with 8 samples.

Results

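The genes described here are 36 genes of the oligodendrocyte lineage and of myelin. They were listed by name from general knowledge of these cells, with earlier results of these data known. They were matched on gene symbol in the deposited gene tables. All 36 were found once among the 54532 genes of the table of the PTS + RS and RS groups and once among the 28229 genes of the table of the RGFP109 and vehicle groups. They fall into 8 classes. These are 2 markers of precursors, 3 transcription factors of the lineage, 3 genes of newly formed oligodendrocytes, 2 maturation factors, 12 myelin proteins, 4 genes of myelin lipids, 5 genes of the axon-glia junction, and 5 genes of signalling or metabolism. The last 5 classes, with 28 genes, are called mature below. RNA-seq was available for 8 libraries of brain from male C57BL/6 mice, taken on Day 21. The PTS + RS group (2 libraries) had photothrombotic stroke, an infarct made by light after a dye is given, followed by restraint stress, and the RS group (2 libraries) had restraint stress without stroke, so that both groups were stressed. The RGFP109 group (2 libraries) and the vehicle group (2 libraries, labelled NaCl) were stroke mice with restraint stress. They received either the HDAC3 inhibitor RGFP109 (60 mg/kg, under the skin, daily for 2 weeks per the methods) or vehicle. A figure legend of the paper instead gives 21 days of dosing. The labels give cortex for all PTS + RS and RS libraries, and cortex for replicate 1 and amygdala for replicate 2 of both the RGFP109 and the vehicle group. The methods give an age of about 3 months for mice in the open-field test. They do not say whether a library holds 1 mouse or several, so the p-values measure the spread between libraries.

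Oligodendrocytes wrap axons of the central nervous system in myelin, a stack of membrane rich in galactolipids and in a few abundant proteins. They arise from precursors that carry PDGFRα and NG2, pass through a short-lived stage marked by GPR17, ENPP6 and BCAS1, and then switch on the myelin genes under the factors SOX10 and MYRF. Precursors persist in the adult cortex, divide after injury and can give rise to new oligodendrocytes.

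The libraries held between 15902013 and 21712033 counts on genes, of which 3.59% to 4.55% fell on mitochondrially encoded ones. The 36 genes took between 0.438% and 0.875% of the counts. Levels of a gene in different libraries are given as CPM, counts divided by the TMM-scaled library size of their table, and levels between genes as the deposited FPKM, which divides by gene length. In the RS group the FPKM ran from 1.499 ± 0.696 (SD, n = 2) for Ninj2 to 292 ± 18.0 for Mbp, with Pdgfra at 6.20 ± 0.0657 and Bcas1 at 35.0 ± 2.15. Among the 8 libraries, 1 stood apart. Vehicle replicate 1, labelled cortex, had a summed level of 1189 CPM over 8 olfactory bulb markers, against 15.03 to 27.5 CPM in the other 7 libraries. Omp, a protein of olfactory neurons, was at 116 CPM there and under 1 CPM in each of the other 7. Its cortex marker Neurod6 was at 11.6 CPM, against 149 CPM in RGFP109 replicate 1 with the same label. Both amygdala-labelled libraries had 1361 and 1498 CPM summed over 10 striatal markers, against 174 to 255 CPM in the other 6 libraries. The tissue words used below are therefore those of the labels. In bulk tissue, fewer cells of a type and less RNA per cell cannot be told apart.

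Between the PTS + RS and RS groups, the largest rises among the 36 genes were those of Gpr17 (1.70-fold) and Enpp6 (2.04-fold), both markers of newly formed oligodendrocytes. Of the mature genes, the deacetylase gene Sirt2 and the galactolipid enzyme gene Ugt8a were upregulated by smaller amounts, and no precursor marker or lineage factor passed the test. These 4 of 36 genes (11.1%) passed an adjusted p of 0.05 in edgeR's quasi-likelihood test in the upward direction, against 2.96% of the 17581 genes tested. None was downregulated, against 0.586% of the genes tested, and 3.55% of those genes passed in either direction. At an unadjusted p under 0.05, 7 (19.4%) were higher, against 10.3% of the genes tested, and 2 (5.56%) were lower, against 7.55%.

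Gpr17, a receptor that marks the passage from precursor to oligodendrocyte, was at 83.3 and 96.8 CPM in the PTS + RS libraries and at 50.7 and 55.2 CPM in the RS libraries. The groups did not overlap, and the log2 fold change was 0.77 (SE 0.100, adjusted p = 0.0092, edgeR quasi-likelihood). Enpp6, a choline phosphodiesterase of newly forming oligodendrocytes, was at 23.8 and 18.5 CPM in the PTS + RS libraries and at 10.03 and 10.6 CPM in the RS libraries. This was the largest log2 fold change of the 36 genes, 1.03 (SE 0.166, adjusted p = 0.021, edgeR quasi-likelihood). Per length Enpp6 was the scarcer of the pair, at 3.27 ± 0.572 FPKM (SD, n = 2) against 17.2 ± 1.88 FPKM for Gpr17 in the PTS + RS group. Bcas1, the third gene of this class and also part of mature myelin, was at 135 and 167 CPM in the PTS + RS libraries and at 138 and 127 CPM in the RS libraries. The groups overlapped for Bcas1, and its log2 fold change of 0.19 did not pass the test (adjusted p = 0.44, edgeR quasi-likelihood).

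The promoter of Enpp6 is shown because this gene had the largest rise. The run is the 250 bases before the RefSeq start on the plus strand, chr8:46986637-46986886 of GRCm38.p6, and the gene spans chromosome 8 from 46986887 to 47096762. Its GC content was 38.4%. Capitals would mark the letters ACAAAG, bound by SOX factors, or CTGGCAC, bound by MYRF, on either strand, and neither is in this window.
Enpp6: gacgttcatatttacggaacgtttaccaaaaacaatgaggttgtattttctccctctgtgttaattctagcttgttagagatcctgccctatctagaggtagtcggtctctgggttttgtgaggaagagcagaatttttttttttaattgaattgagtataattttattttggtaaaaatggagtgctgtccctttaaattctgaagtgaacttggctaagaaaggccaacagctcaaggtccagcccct
RefSeq promoters for the 3 other upregulated genes were looked for in the same table. Those of Sirt2 and Ugt8a hold neither motif in the bases before the start, and none was listed for Gpr17.

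No precursor marker passed the test. Pdgfra, the receptor for the growth factor that drives precursor division, was at 67.9 and 60.9 CPM in the PTS + RS libraries and at 62.0 and 62.8 CPM in the RS libraries. Its log2 fold change was 0.05, with a 95% interval from -0.16 to 0.25. Cspg4, which encodes the NG2 proteoglycan, was at 34.3 and 35.4 CPM in the PTS + RS libraries and at 30.5 and 30.9 CPM in the RS libraries. Its libraries did not overlap, but the log2 fold change of 0.18 (95% interval -0.04 to 0.41) did not pass the test (adjusted p = 0.38, edgeR quasi-likelihood). Other cells also carry these markers, fibroblasts in the case of Pdgfra and pericytes in that of Cspg4. Of 6 fibroblast markers 0 passed the test in edgeR (median log2 fold change -0.17), with 0 at an unadjusted p under 0.05, and of 6 pericyte markers 1 was upregulated, Rgs5. The part of these cells in the values of Pdgfra and Cspg4 was not tested.

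The lineage factors went both ways. Sox10, the factor that all cells of the lineage keep, was at 64.8 and 72.1 CPM in the PTS + RS libraries and at 57.9 and 57.1 CPM in the RS libraries, a log2 fold change of 0.25 (adjusted p = 0.20, edgeR quasi-likelihood). Olig2, which specifies the lineage and is also found in some astrocytes, had the lowest value of the 36 genes. It was at 33.9 and 30.1 CPM in the PTS + RS libraries and at 36.1 and 43.0 CPM in the RS libraries, a log2 fold change of -0.31 (adjusted p = 0.26, edgeR quasi-likelihood). Its neighbour Olig1 had a log2 fold change of 0.16 with libraries that did not overlap. None of the 3 factors passed the test.

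Among the mature genes, Sirt2, a tubulin deacetylase of myelin that is also expressed in other brain cells, was at 202 and 199 CPM in the PTS + RS libraries and at 144 and 143 CPM in the RS libraries. Its log2 fold change was 0.48 (SE 0.0700, adjusted p = 0.014, edgeR quasi-likelihood), and the replicates of each group lay within 3 CPM of each other. Ugt8a, the enzyme that makes galactosylceramide, was at 94.1 and 86.7 CPM in the PTS + RS libraries and at 68.8 and 67.7 CPM in the RS libraries, a log2 fold change of 0.41 (SE 0.0797, adjusted p = 0.044, edgeR quasi-likelihood). The gene of the next enzyme in that route, Gal3st1, which makes sulfatide, had a log2 fold change of 0.24, and Fa2h, the fatty acid 2-hydroxylase of myelin lipids, one of 0.13, and neither passed the test.

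No structural myelin protein passed the test. Mbp, the basic protein that compacts the myelin membrane, was at 2640 and 3185 CPM in the PTS + RS libraries and at 2570 and 2351 CPM in the RS libraries. Its log2 fold change was 0.24, with a 95% interval from -0.06 to 0.55 (adjusted p = 0.38, edgeR quasi-likelihood). Mog, a glycoprotein of the outermost myelin layer, was at 65.7 and 70.2 CPM against 65.1 and 53.6 CPM, a log2 fold change of 0.19. The nearest to the threshold were Ermn, a cytoskeletal protein of myelin, with a log2 fold change of 0.37 (adjusted p = 0.066, edgeR quasi-likelihood) and Cldn11, the tight junction protein of myelin, with 0.37 (adjusted p = 0.097, edgeR quasi-likelihood). Myrf, the factor that switches on the myelin genes, was at 84.7 and 97.6 CPM against 81.9 and 83.9 CPM, a log2 fold change of 0.14. The 12 myelin proteins ranged from -0.17 for Mal to 0.37 for Cldn11 on the log2 scale. The 5 axon-glia genes ranged from -0.05 for Cntn2 to 0.43 for Ninj2, whose libraries held only 15 to 37 counts and whose interval ran from -0.56 to 1.42. Qdpr, which regenerates tetrahydrobiopterin, was lower in both PTS + RS libraries with a log2 fold change of -0.22 (adjusted p = 0.21, edgeR quasi-likelihood).

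**Figure D1:**
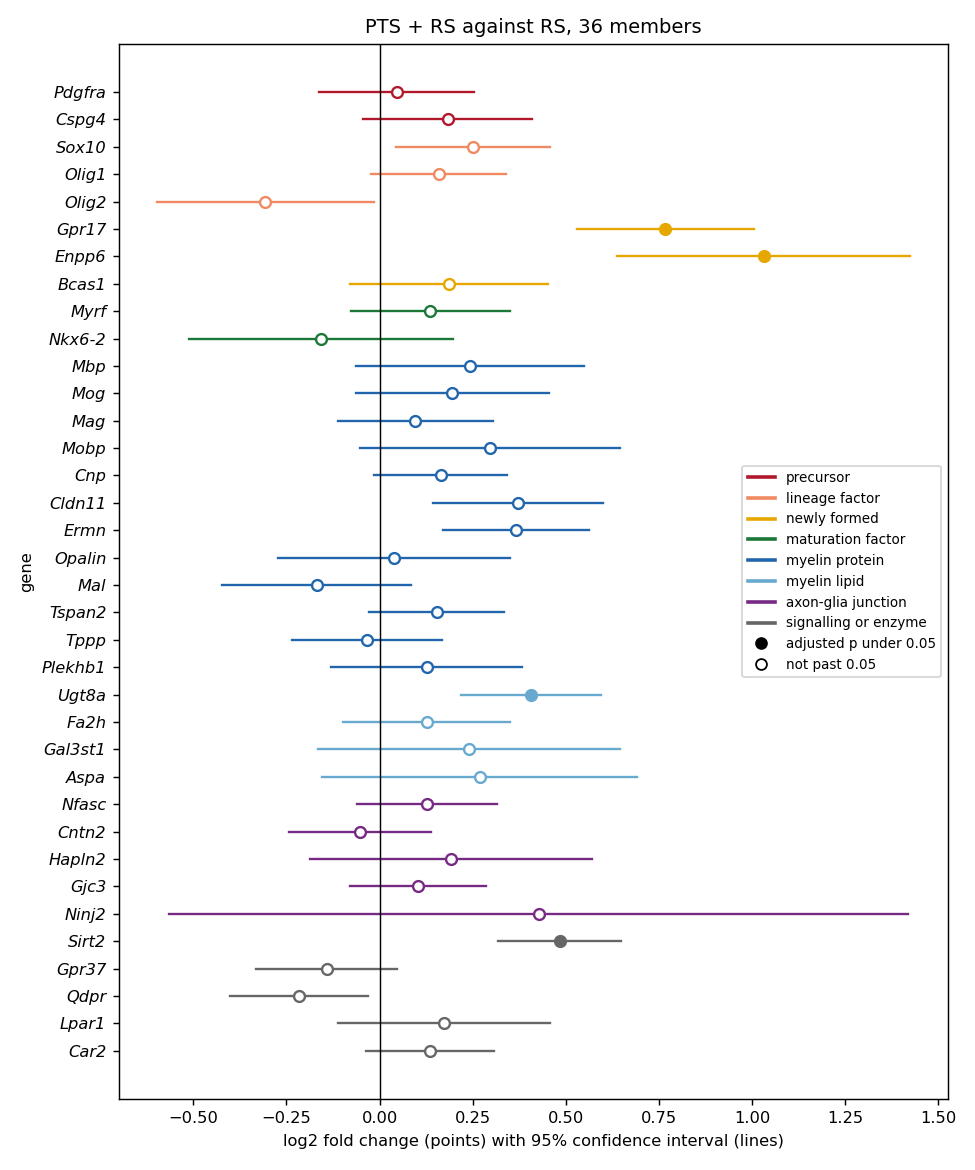
Log2 fold change of PTS + RS over RS on the horizontal axis for each of the 36 genes, coloured by class, with points for the edgeR estimate (2 libraries per group) and lines for the 95% confidence interval. Filled points mark the 4 genes with an adjusted p under 0.05, and Gpr17 and Enpp6 of the newly formed class lie to the right of the others, at 0.77 and 1.03.

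Read by stage, the median log2 fold change was 0.11 for the 2 precursor markers, 0.16 for the 3 lineage factors, 0.77 for the 3 genes of newly formed oligodendrocytes and 0.14 for the 28 mature genes, with -0.002 over all genes tested. The median of the newly formed class is that of Gpr17. Of all 36 genes, 29 (80.6%) had a value above 0, against 49.7% of the genes tested. In 20 of 36 (55.6%) both PTS + RS libraries lay above both RS libraries, against 25.7% of the genes tested, and in 3 (8.33%) both lay below, against 24.5%. The difference between the stages was not tested, since the genes of a stage are not replicates of it.

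A wider list of the same stages gave a mixed picture. Of 8 further precursor genes, Vcan (log2 fold change 0.72, adjusted p = 0.017, edgeR quasi-likelihood) and Ptprz1 (0.43, adjusted p = 0.034) were upregulated, both of which encode proteoglycans that astrocytes can express as well. None of 7 further genes of newly formed oligodendrocytes passed the test, and their median was 0.39. At an unadjusted p under 0.05, 2 of them were higher and 0 were lower. Of 20 further mature genes 2 were upregulated. Klk6, a secreted protease, went from 11 and 10 counts in the RS libraries to 144 and 106 counts in the PTS + RS libraries, a log2 fold change of 3.56 (SE 0.307, adjusted p = 0.0017, edgeR quasi-likelihood). Apod, a lipid carrier, had a log2 fold change of 0.77 (adjusted p = 0.015, edgeR quasi-likelihood).

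Genes of other cell types moved in the same libraries. All 12 microglia markers were upregulated (median 2.25 on the log2 scale), with a summed level of 1421 to 1682 CPM in the PTS + RS group against 333 to 370 CPM in the RS group. Of 10 astrocyte markers 5 were upregulated (median 0.48), namely Gfap, Aqp4, Slc1a3, Gja1 and S100b, with a summed level of 6781 to 7963 CPM against 4621 to 4660 CPM. None of 10 neuron markers passed the test (median -0.11), and at an unadjusted p under 0.05 0 were higher and 1 was lower. Of 3 tested Schwann cell markers (median 0.02) Pmp22, also a gene of other cells, was upregulated. Egr2 went the other way, with a log2 fold change of -0.82 and an unadjusted p under 0.05 in edgeR. The part of these cells in the values of Gpr17, Enpp6, Sirt2 and Ugt8a was not tested.

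These calls rested on single libraries to different degrees. Without RS replicate 1, only Gpr17 of the 36 genes stayed past the threshold (2.29% of the genes tested were called), and without RS replicate 2, Gpr17 and Enpp6 did (2.01%). Without PTS + RS replicate 1, 12 genes were higher, among them Mbp, Mobp, Bcas1 and Sox10 (9.7% of the genes tested). Without PTS + RS replicate 2, 6 were higher and 2, Mal and Qdpr, were lower (14.6%). With all libraries, 4 genes were called by DESeq2 (4.47% of the genes tested), 3 by limma-voom (2.99%), 6 without a filter on low counts (6.1%) and 5 with the replicate number as a block (5.2%). With a log2 fold change of at least 1 also required, Enpp6 was the 1 gene left (2.21%).

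**Figure D2:**
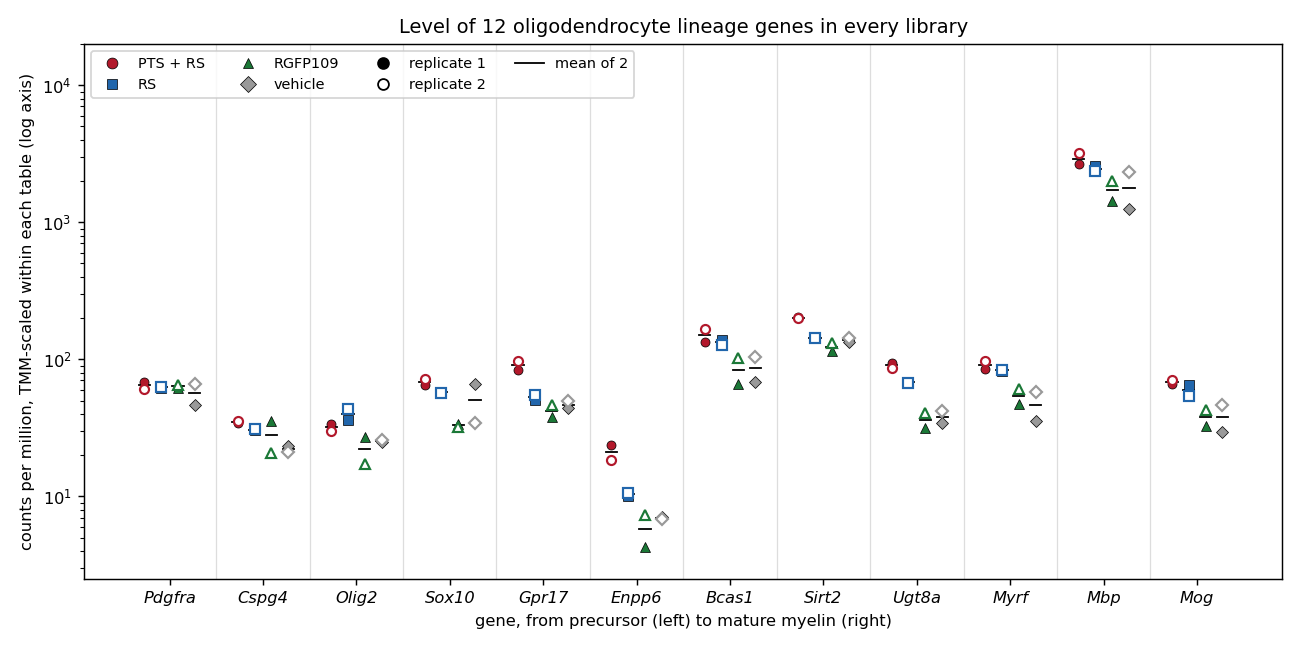
Level of 12 genes on a log axis in CPM (vertical), ordered from precursor to mature, with 1 symbol per library (filled for replicate 1, open for replicate 2) and a short line at the mean of the 2 libraries of a group. Gpr17, Enpp6, Sirt2 and Ugt8a are higher in both PTS + RS libraries than in both RS libraries. The RGFP109 and vehicle libraries lie wholly below the other libraries in 9 of the 12 genes, all but Pdgfra, Cspg4 and Sox10. The gap is narrow for Gpr17, Sirt2 and Mbp.

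Between the RGFP109 and vehicle groups, no member of the 36 genes passed the test. With an adjusted p under 0.05, 0 of 36 genes were higher and 0 were lower, and the same held for all 17565 genes tested (0.0% called) in edgeR, DESeq2 and limma-voom. At an unadjusted p under 0.05, edgeR gave 88 genes higher (0.501%) and 118 lower (0.672%), and 0 of the 36 genes. The common biological coefficient of variation was 32.1% here. The replicates of each group carry different tissue labels and the fit had no tissue term, so this value also holds the difference between labels. With treatment and tissue label both in the fit it was 26.5%. For PTS + RS and RS, all labelled cortex, it was 11.4%.

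Of the newly formed class, Gpr17 was at 37.8 and 46.4 CPM in the RGFP109 libraries and at 43.8 and 49.6 CPM in the vehicle libraries, a log2 fold change of -0.15 (95% interval -0.65 to 0.35). Enpp6 was at 4.24 and 7.33 CPM with RGFP109 and at 7.04 and 6.79 CPM with vehicle, a log2 fold change of -0.25 (95% interval -1.21 to 0.70). Bcas1 was at 65.8 and 101 CPM against 68.1 and 104 CPM, with replicate 2 the higher in both groups. The interval of Enpp6 includes both no difference and a fall as large as its rise in the PTS + RS group.

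Among precursor markers, Pdgfra was at 61.9 and 65.0 CPM with RGFP109 and at 46.2 and 66.5 CPM with vehicle, so that vehicle replicate 1 was the low value. Cspg4 was at 35.5 and 20.6 CPM against 23.3 and 21.2 CPM, where RGFP109 replicate 1 was the high value. Sox10 was at 33.8 and 32.3 CPM with RGFP109 and at 65.5 and 34.5 CPM with vehicle, a log2 fold change of -0.60, and of -0.07 without vehicle replicate 1. Olig2 was at 27.0 and 17.2 CPM against 25.0 and 25.9 CPM.

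Of mature genes, Myrf was at 46.8 and 61.0 CPM with RGFP109 and at 35.3 and 57.9 CPM with vehicle. Mbp was at 1429 and 1985 CPM against 1251 and 2323 CPM, and Mog at 32.7 and 42.6 CPM against 29.4 and 46.3 CPM. For all 3 the groups overlapped and replicate 2 was the higher. The highest fitted value was that of Tppp, a tubulin polymerization protein of myelinating cells and neurons, at 540 and 536 CPM with RGFP109 and at 260 and 493 CPM with vehicle. Its log2 fold change was 0.51 (adjusted p = 1.0, edgeR quasi-likelihood) and 0.12 without vehicle replicate 1. The lowest was that of Ninj2, an adhesion protein, with 13 and 10 counts in the RGFP109 libraries and 22 and 24 counts in the vehicle libraries, a log2 fold change of -0.99 with a 95% interval from -2.39 to 0.41. Lpar1, a receptor for lysophosphatidic acid, had the smallest unadjusted p of the 36 genes, 0.063 from edgeR's quasi-likelihood test, with a log2 fold change of -0.60. Its levels were 20.3 and 19.6 CPM with RGFP109 and 35.8 and 24.5 CPM with vehicle, where vehicle replicate 1 was the high value. With 1 library left out its log2 fold change ran from -0.83 to -0.31.

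By stage the median log2 fold change was 0.25 for precursor markers, -0.28 for lineage factors, -0.15 for newly formed and -0.07 for mature genes, with -0.02 over all genes tested. A value above 0 was found in 13 of 36 genes (36.1%), against 47.4% of the genes tested. All RGFP109 libraries lay above all vehicle libraries in 3 of 36 genes (8.33%, against 12.9% of the genes tested) and below in 6 (16.7%, against 13.8%). Within replicate 1, 8 of 36 genes (22.2%) had a log2 ratio of RGFP109 over vehicle of at least 0.5 in size, against 36.4% of the genes tested. Within replicate 2 the count was 3 of 36 (8.33%), against 13.0%. These were Olig2 (-0.59), Gal3st1 (-0.57) and Ninj2 (-1.29).

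**Figure D3:**
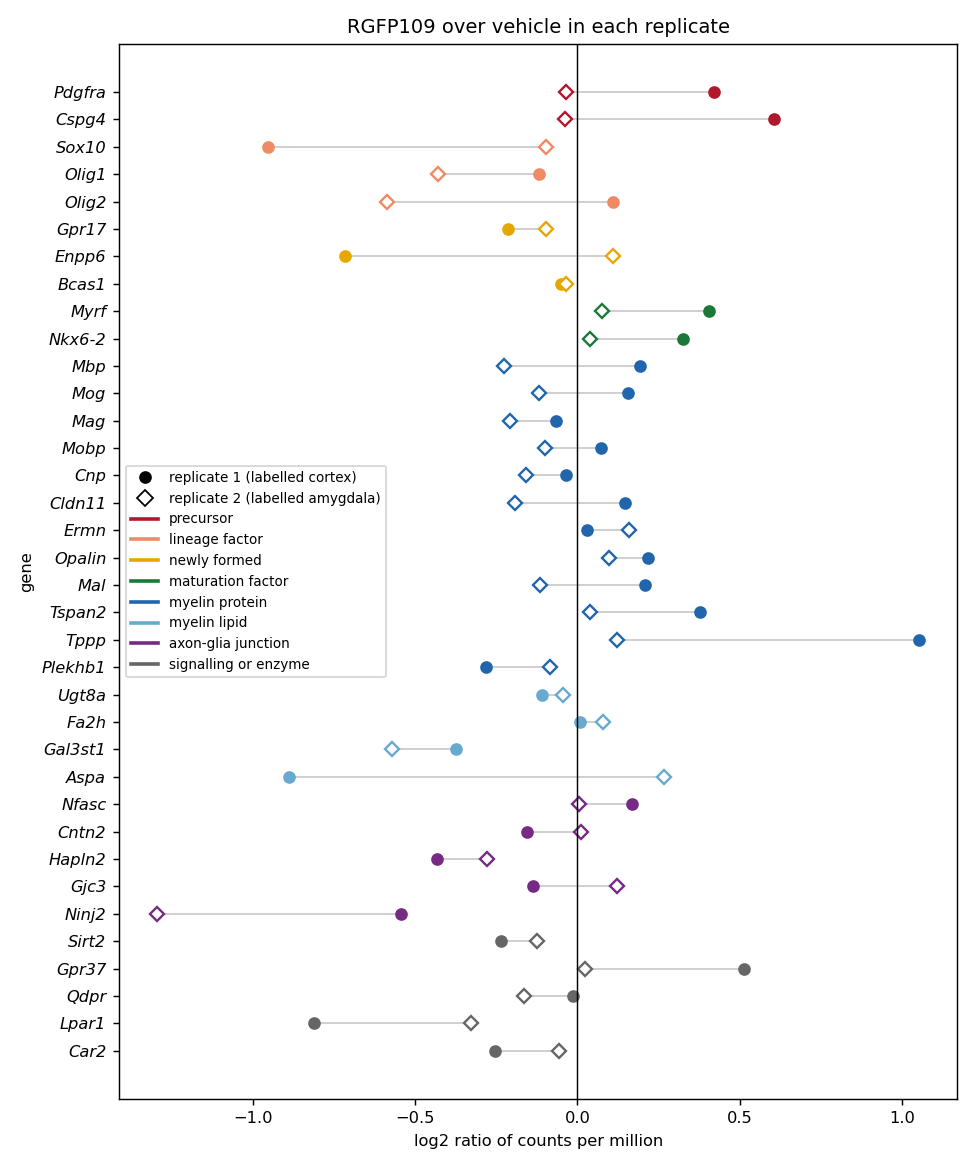
Log2 ratio of CPM, RGFP109 over vehicle (horizontal), for each of the 36 genes, with a filled circle for replicate 1 (labelled cortex) and an open diamond for replicate 2 (labelled amygdala), each the ratio of 2 single libraries and so without an error bar. The replicate 2 points lie within 0.5 of 0 with 3 exceptions, and the replicate 1 points spread from -0.95 for Sox10 to 1.05 for Tppp.

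Vehicle replicate 1, the library with olfactory markers, was the highest of the 4 libraries for 5 of 36 genes, Sox10, Lpar1, Aspa, Gal3st1 and Car2, and the lowest for 14, among them Mbp, Mog, Myrf, Mobp, Mal and Tppp. Of all genes tested it was the highest for 6129 and the lowest for 5666 of 17565. It was above 1.5 times the highest other library for 2 of the 36, Sox10 and Aspa, and for 1387 of all genes. Some of the 14 were near ties, such as Fa2h at 0.995 and Ermn at 0.979 times the lowest other library. Ensheathing glia are the myelin-free glia of the olfactory nerve that share SOX10 with oligodendrocytes. Their 3 markers, a list added after earlier results were seen, summed to 356 CPM there. The sum was 58.6 to 70.7 CPM in the other 3 libraries of the table and 92.4 to 118 CPM in the PTS + RS and RS libraries. Of the 356 CPM, Fabp7 held 216 CPM, Frzb 87.8 CPM and Npy 52.7 CPM, and Npy was at 41.7 CPM in vehicle replicate 2. The part of ensheathing glia in the level of Sox10 was not tested.

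The same 4 libraries also gave the contrast between tissue labels, with the treatment as a term in the fit, so that it shares all its libraries with the comparison above. In 9 of the 12 myelin protein genes both amygdala-labelled libraries lay above both cortex-labelled ones, against 21.6% of the genes tested, but no gene passed the adjusted test. The cortex-labelled vehicle library is the one with olfactory markers. With an adjusted p under 0.05, 0 of 36 and 0 of 17565 genes (0.0%) were called in edgeR, while DESeq2 called 207 genes (1.18%) and edgeR without a filter 240 (0.85%), with 0 of the 36 in both. At an unadjusted p under 0.05, 9 of 36 genes (25.0%) were higher, against 6.09% of the genes tested, and 0 were lower, against 3.06%. The 9 were Bcas1, Myrf, Mag, Mobp, Cldn11, Ermn, Mal, Tspan2 and Hapln2.

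Hapln2, a link protein of the matrix at nodes of Ranvier, had the highest value. It was at 33.2 and 40.3 CPM in the amygdala-labelled libraries (RGFP109, then vehicle) and at 15.7 and 21.2 CPM in the cortex-labelled ones, a log2 fold change of 1.00 (SE 0.204, adjusted p = 0.38, edgeR quasi-likelihood). Cldn11 was at 135 and 154 CPM against 75.7 and 68.4 CPM, a log2 fold change of 1.00 with the same adjusted p. Mal, a proteolipid of myelin rafts, was at 186 and 201 CPM against 120 and 104 CPM, and Mobp, a protein of compact myelin, at 688 and 737 CPM against 434 and 412 CPM. For Mbp the levels were 1985 and 2323 CPM against 1429 and 1251 CPM, a log2 fold change of 0.68 (adjusted p = 0.56, edgeR quasi-likelihood). In these 5 genes the libraries did not overlap between the labels, and the spread within a label was smaller than the gap. The 1 myelin protein gene with a value below 0 was Opalin, a transmembrane glycoprotein, at 9.43 and 8.79 CPM against 10.3 and 8.85 CPM.

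Genes of the earlier stages lay on both sides of 0. Sox10 had a log2 fold change of -0.50. Its log2 ratio was -0.92 between the vehicle libraries and -0.07 between the RGFP109 libraries, and the fitted value was -0.0052 without vehicle replicate 1 and -0.97 without RGFP109 replicate 1. Cspg4 was at 20.6 and 21.2 CPM in the amygdala-labelled libraries against 35.5 and 23.3 CPM, a log2 fold change of -0.46. Pdgfra was at 65.0 and 66.5 CPM against 61.9 and 46.2 CPM, a log2 fold change of 0.30. Gpr17 differed by 0.24 and Enpp6 by 0.36 on the log2 scale, and Bcas1 by 0.62. The lowest value was that of Gal3st1, at 6.25 and 9.34 CPM in the amygdala-labelled libraries and at 9.56 and 12.4 CPM in the cortex-labelled ones, a log2 fold change of -0.51. Medians were 0.53 for the 12 myelin proteins, 0.29 for all 28 mature genes, 0.36 for the newly formed class, -0.30 for the lineage factors and -0.08 for the precursor markers, with -0.01 over all genes tested. A value above 0 was found in 26 of 36 genes (72.2%), against 48.5%. The amygdala-labelled libraries lay above both others in 21 of 36 genes (58.3%, against 21.6% of the genes tested) and below in 3 (8.33%, against 22.4%).

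Promoters are shown for Mag, Mobp and Hapln2, the 3 of these 9 genes whose RefSeq promoter (GRCm38.p6) holds ACAAAG or CTGGCAC in the bases before the start. For a gene with several listed promoters the one nearest the deposited start was read. Each run ends before the first base of the deposited gene, and capitals mark the motifs on either strand. ACAAAG also appears as CTTTGT and CTGGCAC as GTGCCAG on the opposite strand. Mag (chr7:30914874-30915113, minus strand) holds 1 of each, Mobp (chr9:120149492-120149706, plus strand) holds 6 copies of ACAAAG, and Hapln2 (chr3:88027584-88027761, minus strand) holds 1 copy of CTGGCAC.
Mag: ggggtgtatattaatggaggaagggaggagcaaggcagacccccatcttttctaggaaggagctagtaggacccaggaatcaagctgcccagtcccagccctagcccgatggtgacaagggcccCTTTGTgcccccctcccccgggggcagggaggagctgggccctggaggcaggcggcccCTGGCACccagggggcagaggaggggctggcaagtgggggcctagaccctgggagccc
Mobp: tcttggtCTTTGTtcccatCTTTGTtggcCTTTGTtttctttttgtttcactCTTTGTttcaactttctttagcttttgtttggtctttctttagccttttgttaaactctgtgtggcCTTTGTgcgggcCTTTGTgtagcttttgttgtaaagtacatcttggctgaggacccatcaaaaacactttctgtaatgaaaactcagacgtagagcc
Hapln2: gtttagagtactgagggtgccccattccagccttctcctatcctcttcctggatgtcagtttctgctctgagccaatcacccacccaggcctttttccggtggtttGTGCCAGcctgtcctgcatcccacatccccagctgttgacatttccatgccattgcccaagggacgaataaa
Of the other 6 genes, Cldn11, Ermn, Mal and Tspan2 held neither motif in this window, and none was listed for Bcas1 and Myrf. Over all 32851 RefSeq promoters, 16.5% hold ACAAAG and 4.19% hold CTGGCAC in the 250 bases before the start. Of the 37 promoters listed for 28 of the 36 genes, 24.3% and 13.5% do, some of them overlapping promoters of 1 gene. Of the other motifs searched, both E-boxes, CAGCTG is in 8.11% of these promoters against 13.0% of all, and CAGATG in 27.0% against 14.4%. A match is a run of letters and not a measured binding site.

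Values of other lists stood beside this contrast. All 10 striatal markers were higher at an unadjusted p under 0.05 (median log2 fold change 3.22), and 9 of 12 microglia markers were (median 1.23). The 10 amygdala markers summed to 372 and 389 CPM in the amygdala-labelled libraries and to 277 and 1128 CPM in the cortex-labelled ones. The 1128 CPM is that of vehicle replicate 1, where Meis2 held 626 CPM and Tshz1 339 CPM. Meis2, Tshz1 and Crh were highest in that library among those of this contrast, and Prkcd, Cyp26b1, Lmo3 and Dlk1 were lowest there. The part of the region sampled in the levels of the myelin genes was not tested. Fits of this contrast with 1 library left out had no treatment term. They set libraries of both treatments against a single library of 1 treatment. Without vehicle replicate 1, which leaves RGFP109 replicate 1 as the sole cortex-labelled library, assumed to vary like the others, 9 of 36 genes were higher and 1 lower at an adjusted p under 0.05 in edgeR, against 13.8% of the genes tested in either direction. The 9 were Hapln2, Mag, Ermn, Cnp, Cldn11, Mbp, Bcas1, Mobp and Mal, and the lower gene was Cspg4 with a log2 fold change of -0.75. Without RGFP109 replicate 1, which leaves vehicle replicate 1 as the sole cortex-labelled library, 15 were higher and 4 were lower, against 28.7% of the genes tested.

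**Figure D4:**
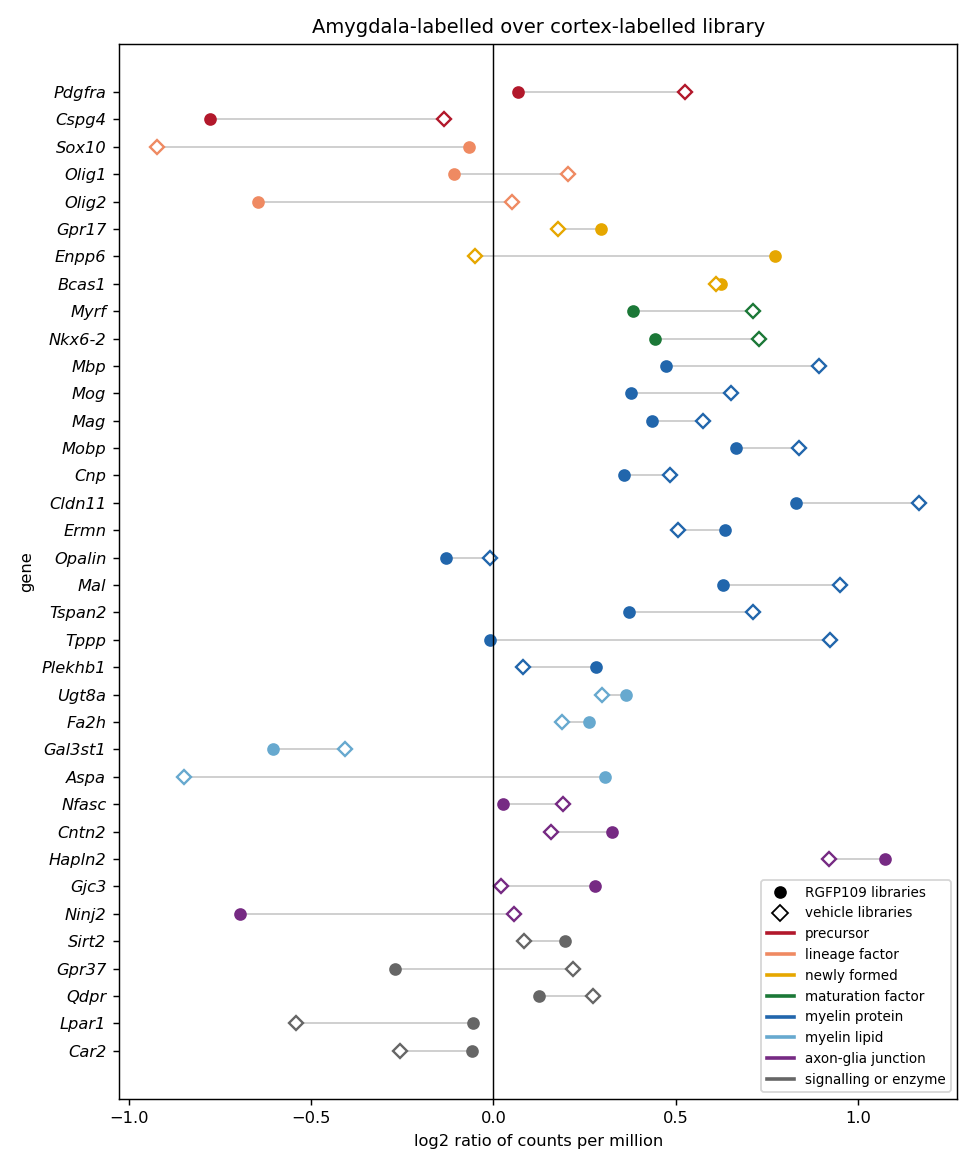
Log2 ratio of CPM, amygdala-labelled over cortex-labelled library (horizontal), for each of the 36 genes, with a filled circle for the RGFP109 libraries and an open diamond for the vehicle libraries, each the ratio of 2 single libraries and so without an error bar. Of the myelin protein genes, Mbp, Mog, Mag, Mobp, Cnp, Cldn11, Ermn, Mal, Tspan2 and Plekhb1 lie to the right of 0 in both, while Cspg4, Sox10 and Gal3st1 are among those to the left in both.

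Levels of these genes also differed between the tables, which were normalized separately, so that no test was run. In 25 of 36 genes (69.4%) all 4 RGFP109 and vehicle libraries lay below all 4 PTS + RS and RS libraries, against 4.47% of the 16927 genes tested in both tables. In 0 of 36 they lay above, against 5.58%. Some of the 25 were near ties. The highest value in the second table and the lowest in the first were 142 and 143 CPM for Sirt2. For Mbp they were 2323 and 2351 CPM. The vehicle mice had stroke with restraint stress, as the PTS + RS mice had. The mean CPM of the second table was 0.351 times that of the first for Opalin, 0.404 times for Enpp6, 0.459 times for Fa2h, 0.468 times for Ugt8a and 0.650 times for Mbp. Pdgfra (0.945 times), Cntn2 (0.964 times), Aspa (0.939 times) and Hapln2 (0.938 times) overlapped between the tables. The microglia marker Cd68 was at 8.93 CPM in RGFP109 replicate 1 and at 6.36 CPM in vehicle replicate 1, the library with olfactory markers. In the amygdala-labelled libraries it was at 17.6 CPM with RGFP109 and 26.9 CPM with vehicle. Its levels were 62.9 and 56.4 CPM in the PTS + RS libraries and 7.77 and 7.12 CPM in the RS libraries. The first table holds only cortex-labelled libraries. The second also holds the amygdala-labelled libraries, and its cortex-labelled vehicle library carries olfactory markers. RGFP109 replicate 1 is the only other cortex-labelled library there. The experiment, the table, the animals and the tissue sampled cannot be told apart here.

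**Figure D5:**
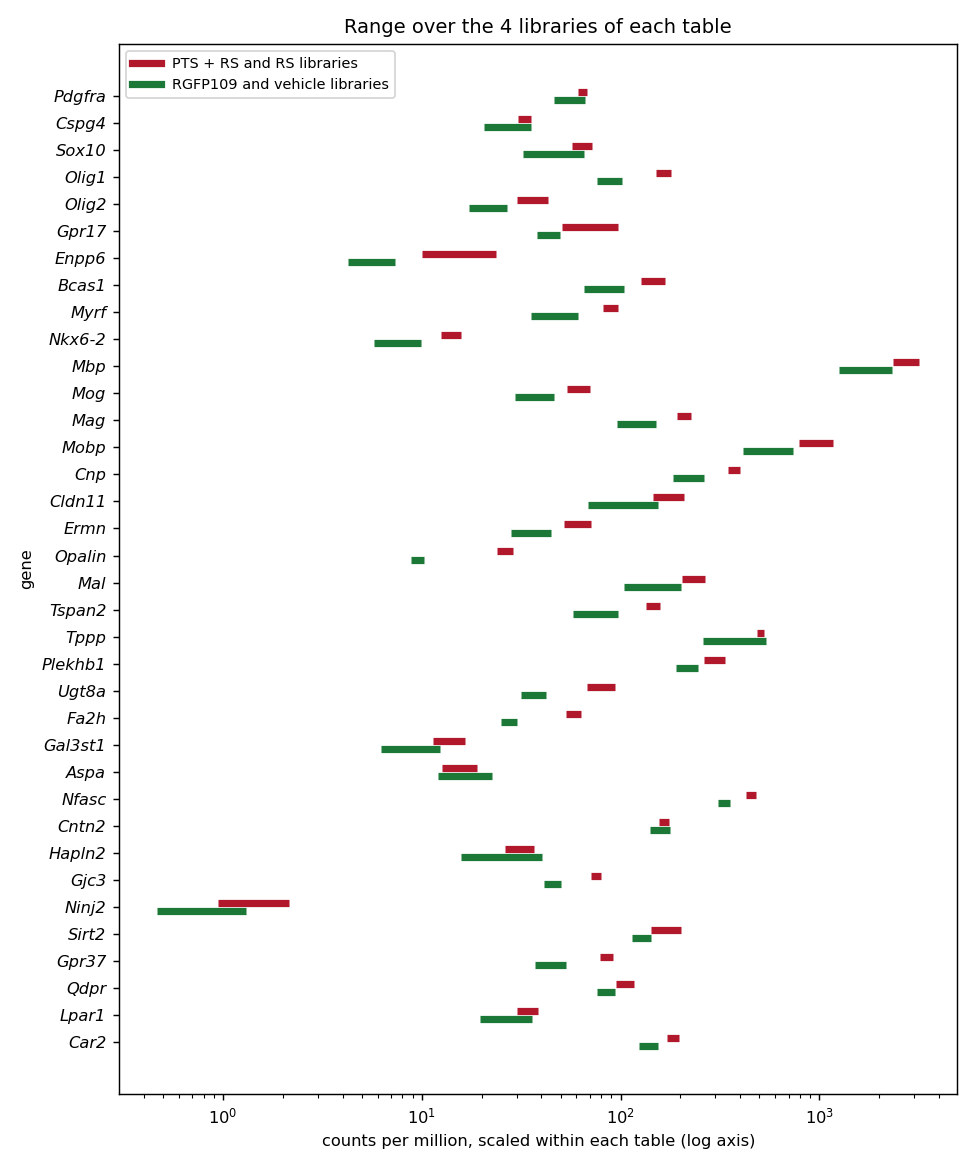
Range of CPM (horizontal, log axis) over the 4 PTS + RS and RS libraries (red bars) and over the 4 RGFP109 and vehicle libraries (green bars) for each of the 36 genes. The green bar lies wholly to the left of the red bar in 25 of 36 genes, and the pairs of bars overlap in the other 11.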

How the data were processed

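The data are RNA-seq of 8 mouse brain libraries, 2 in each of 4 groups. Per the labels and the methods, the authors aligned reads to GRCm38 with STAR 2.4.0 and counted reads per gene with HTSeq 0.6.1, and the deposited counts are not normalized. The deposited FPKM values are these counts divided by gene length and by 1 factor per library. The strand setting of the counting was not given in the sources used here, and the labels and the methods name different library kits. At most 20% of the exon bases of any of the 36 genes are shared with another gene on either strand. The deposited fold changes, p-values and group means, and 8 columns of normalized per-library values, were not used.

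Genes with few counts were removed with filterByExpr, libraries were scaled by TMM, and each contrast was tested by the quasi-likelihood method of edgeR (edgeR 4.0.16, R 4.3.3) with Benjamini-Hochberg adjustment over all tested genes, 17581 in the first table and 17565 in the second. The tissue contrast had the treatment as a term. Fits with 1 library left out had no term but the group or label compared. Alternatives were DESeq2 1.42.0, limma-voom (limma 3.58.1), DESeq2 size factors, no filter, the replicate number as a block, the fold limit, and each library left out. A prior count of 2 was added for log2 ratios of 1 library to another. No pair of replicates was 1 library deposited again (the chi-square per gene was 4.95 to 83.85), and the spread between libraries limits the precision more than the depth. Values in every library are given for 10 stage genes, for genes past an adjusted p of 0.05 and for the highest and lowest value in each comparison. The genes and lists were chosen with earlier results of these data known, and the olfactory and ensheathing glia lists were added after seeing them. The replicate numbers do not pair the PTS + RS and RS libraries (correlation of deviations 0.0352). In the RGFP109 and vehicle groups the number is also the tissue label (0.299). The level of 1 gene of the marker lists is not reported here.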

Additional observations from a re-analysis of the deposited data

Results flagged for a closer look

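Aspa, which encodes aspartoacylase, the enzyme that frees acetate for myelin lipids, moved in opposite ways with RGFP109 in the 2 replicates. The log2 ratio of RGFP109 over vehicle was -0.888 in replicate 1 (labelled cortex, 12.1 against 22.5 CPM) and 0.267 in replicate 2 (labelled amygdala, 14.98 against 12.4 CPM). Each ratio rests on 1 library a side, and the difference between them was not tested. It was the only one of the 36 genes with opposite ratios of at least 0.25 in size. The share of all genes tested with such ratios is not given here. The high value, 22.5 CPM, is that of vehicle replicate 1, the library with olfactory markers.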

How the results depend on the processing

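For PTS + RS against RS, the count of higher genes among the 36 was 4 with DESeq2 and with DESeq2 size factors, 6 without a filter, 3 with limma-voom, where Ugt8a had an adjusted p of 0.055, and 1 (Enpp6) when a log2 fold change of at least 1 was also asked for, an alternative chosen after seeing the data. With the replicate number as a block it was 5, with Cldn11 added (0.38, adjusted p = 0.041), and it changed no other call among the 36. Leaving out 1 library gave 1 to 12 higher and 0 to 2 lower genes. Without RS replicate 1 the adjusted p of edgeR's quasi-likelihood test was 0.059 for Enpp6, 0.16 for Sirt2 and 0.26 for Ugt8a, and without RS replicate 2 it was 0.20 for Sirt2 and 0.36 for Ugt8a. The log2 fold change without 1 library ran from 0.65 to 0.87 for Gpr17 and from 0.84 to 1.2001 for Enpp6 and from -0.0366 (without PTS + RS replicate 1) to 0.1197 for Pdgfra. It ran from 0.0992 (without PTS + RS replicate 2) to 0.3708 (without PTS + RS replicate 1) for Mbp, from 0.0569 (without RS replicate 2) to 0.3377 for Mog, from 0.0287 (without PTS + RS replicate 2) to 0.2341 for Myrf and from -0.4351 to -0.1809 (without RS replicate 2) for Olig2. Medians without 1 library ran from 0.0833 to 0.204 for all 36 genes, from 0.10 to 0.21 for lineage factors, from 0.65 to 0.84 for newly formed, from 0.06 (without RS replicate 2) to 0.204 for mature and from 0.0846 to 0.138 for precursor genes. For RGFP109 against vehicle no setting called any of the 36 genes, the replicate block included. Signs turned without RGFP109 replicate 1 for Cspg4 (-0.1054, with a range to 0.6759), Enpp6 (0.0859, range from -0.7015) and Mbp (0.1528), without vehicle replicate 2 for Mbp (0.458, range from -0.4502) and without vehicle replicate 1 for Pdgfra (-0.0743, range to 0.4666), and medians ran from -0.24 to 0.17 for all genes of the list, from -0.56 to -0.17 for lineage factors, from -0.387 to 0.0859 for newly formed, from -0.241 to 0.172 for mature and from 0.0506 to 0.406 for precursor genes, so that the sign turned with the library left out for the list, the newly formed and the mature genes. For the tissue labels, leaving out 1 library gave 0 to 15 higher and 0 to 4 lower genes, and medians ran from 0.22 to 0.30 for all 36, from -0.578 to 0.00162 for lineage factors, from 0.26 to 0.33 for mature, from 0.13 to 0.66 for newly formed and from -0.33 to 0.18 for precursor genes. The cause of these shifts was not tested. With 1 library left out, an arm of 1 library is assumed to vary like the others. These fits had no treatment or tissue term beside the contrast itself. For RGFP109 against vehicle, the arm of 1 library then held 1 tissue label and the other arm held both. Treatment and label cannot be told apart in those fits. The number of libraries, 2 a group, limits the precision.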
